A study of Mus musculus with 7 samples.

Results

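The genes described here encode the motor of striated muscle, the sarcomeric myosin heavy chains, their light chains and a myosin-binding protein, in mouse C2C12 cells. They were chosen by name, from a list of 9 genes, and follow here by role and by the order in which the isoforms appear in development. Of these, 7 had a row among the 13376 rows of the expression table: Myh3, Myh1, Myl4, Myl1, Mylpf, Myl6b and Mybph. Myh7 and Myh8 were not analysed here. C2C12 is an established line of mouse myoblasts, and the cells were proliferating when their RNA was taken. They had received either a scrambled control siRNA (2 libraries, labelled control) or an siRNA against the long noncoding RNA lnc-31 (2 libraries, labelled lnc31 knockdown). A separate pull-down used biotinylated antisense probes against lnc-31 (labelled ODD) or against lacZ, a bacterial sequence serving as background, with 1 library each, and 1 input library was not analysed here.

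Sarcomeric myosin is a hexamer of a pair of heavy chains, each holding an essential and a regulatory light chain, and it packs into the thick filament of the sarcomere. Muscle precursors switch these genes on when they leave the cell cycle and differentiate under the transcription factors of the MyoD and MEF2 families, beginning with embryonic isoforms, and adult fast or slow isoforms follow. Growing myoblasts rely for cell shape and division on other, non-sarcomeric class II myosins. Those are activated when their regulatory light chain is phosphorylated, a step that the kinase Rock1, named in the title of the series, promotes.

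Expression was given as FPKM, the number of fragments scaled to transcript length and to the fragments mapped in the library, so levels can be compared between genes. The number of reads behind a value is unknown, and the spread between libraries is the measure of error. Nothing in the labels ties libraries of a group to separate cultures, so p-values measure only how far these samples differ, and that spread may be technical. The sum of FPKM over all rows was 1515596 in scrambled siRNA 1 and 2141386 to 2466046 in the other libraries. Scrambled siRNA 2 stood apart in a mitochondrial row, mt-Nd2, at 395110 FPKM against 2876 to 3401 in the others, while the median of ratios size factors of the libraries were 0.985 to 1.02. Of the 8 myoblast markers checked, 6 had a row, and their summed FPKM was 402.8 and 408.4 with scrambled siRNA and 477.5 and 486.7 with lnc-31 siRNA. The defining myoblast factors Myod1 (47.3 to 65.0 FPKM) and Myf5 (35.2 to 38.6 FPKM) were present in all libraries. Of the 6, 4 were called higher by limma (Chrna1, Des, Cdh15 and Myod1). At an unadjusted p under 0.05, 5 were higher and 1 lower, Myf5 (log2 fold change -0.10, adjusted p = 0.16). Pax7 and Msc had no row. The calls of Des and Cdh15 were lost with any 1 library left out (adjusted p = 0.052 to 0.11 and 0.067 to 0.12) and, with all libraries, under a constant prior variance (0.052 and 0.055), and that of Myod1 without either scrambled siRNA library (0.092 and 0.061) or the second lnc-31 siRNA library (0.058). No row carries the name lnc-31. A row naming Mir31, the microRNA that lnc-31 hosts, stood at 14.5 ± 1.58 with scrambled siRNA and 13.1 ± 1.40 FPKM with lnc-31 siRNA (SD, n = 2 each, limma adjusted p = 0.38). Whether that row measures the RNA targeted by the siRNA is not known, so directions below are those of libraries labelled lnc-31 siRNA. Rock1 itself was at 16.8 ± 0.357 and 17.7 ± 0.115 FPKM (adjusted p = 0.38).

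All 6 of these genes that could be tested rose in the pair of libraries labelled lnc-31 siRNA. They were Myh3, Myl4, Myl1, Mylpf, Myl6b and Mybph, the last of which encodes a myosin-binding protein. The 9 genes were listed when earlier results of these data were known, so this count is no independent evidence of its direction. Limma was run on log2(FPKM + 1) over the 11500 rows whose mean reached 1 FPKM, with Benjamini-Hochberg adjusted p under 0.05 counted as a call. In the same comparison 5.64% of all tested rows were called higher and 6.78% lower. The log2 fold changes of the 6 genes ran from 0.51 to 1.03 with a median of 0.82, against a median of -0.01 over all tested rows. No member was called lower by limma, nor was any lower at an unadjusted p under 0.05. In each of the 7 rows the lower lnc-31 siRNA library lay above the higher scrambled siRNA library, a separation found in 28.6% of all rows. Among tested rows 28.5% were separated in this direction and 31.7% in the opposite one. Myh1, with a mean under 1 FPKM, was outside the test. In bulk RNA a larger number of cells that express sarcomeric myosin and more such RNA per cell cannot be told apart.

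**Figure D1:**
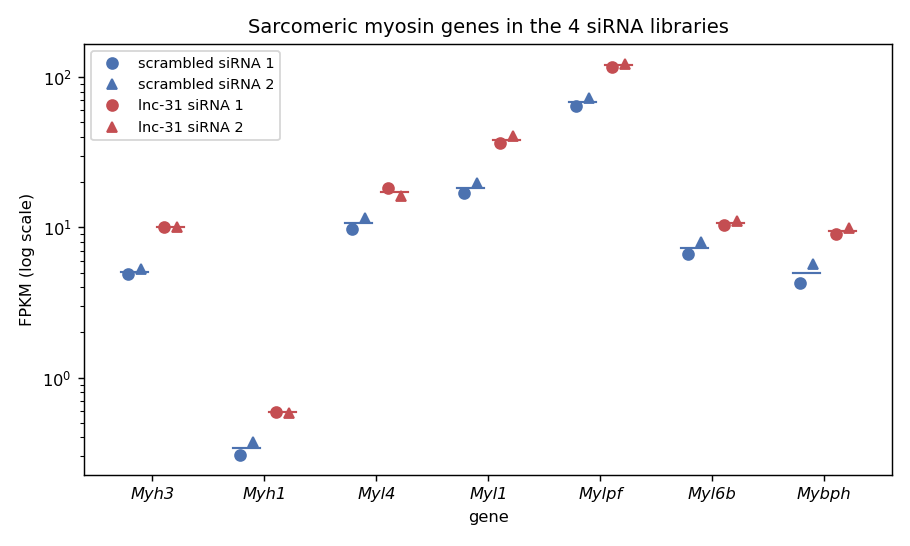
FPKM (log axis) of the 7 genes in the 2 scrambled siRNA libraries (blue) and the 2 lnc-31 siRNA libraries (red). Circles mark replicate 1, triangles replicate 2 and lines group means. The red points lie above the blue points for every gene, from Myh1 under 1 FPKM to Mylpf at 64.0 to 122.8 FPKM.

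Myh3 is the embryonic myosin heavy chain, the isoform of newly formed fibres. It stood at 4.90 and 5.26 FPKM with scrambled siRNA and at 9.98 and 10.1 FPKM with lnc-31 siRNA. The lnc-31 siRNA libraries nearly coincided, and even the nearest values of the groups were 1.90-fold apart. Mean FPKM was 1.97-fold higher with lnc-31 siRNA, and the log2 fold change was 0.86 (SE 0.062, limma adjusted p = 0.0053), which ranked 56 among the 11500 tested rows. The gene occupies chr11:67078273-67102291 on GRCm38.p6, whose coordinates are those of mm10, the build in the submitters' notes.

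Myh1 is an adult fast heavy chain, the IIx isoform, and lies downstream of Myh3 in the same cluster, at chr11:67200102-67224577. It stood at 0.305 and 0.375 FPKM with scrambled siRNA and at 0.594 and 0.584 FPKM with lnc-31 siRNA. The pairs of values were separate, but every value was under 1 FPKM. Mean FPKM was 1.73-fold higher with lnc-31 siRNA. With no filter on low rows, limma gave it a log2 fold change of 0.25 and an adjusted p of 0.15, which did not pass. Its span shares its last bases with the long noncoding RNA gene Myhas in RefSeq, and no source used here says whether reads were counted by strand.

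The upstream sequences of these heavy chain genes are shown as a description, and a link to their levels was not tested. They are RefSeq sequences on GRCm38.p6, plus strand, ending at or just inside the start of the gene. Capitals mark the E-box CANNTG, the core bound by MyoD and myogenin, and TATAAA, the TATA box, on either strand (TTTATA is its reverse).
Myh3, chr11:67078050-67078276: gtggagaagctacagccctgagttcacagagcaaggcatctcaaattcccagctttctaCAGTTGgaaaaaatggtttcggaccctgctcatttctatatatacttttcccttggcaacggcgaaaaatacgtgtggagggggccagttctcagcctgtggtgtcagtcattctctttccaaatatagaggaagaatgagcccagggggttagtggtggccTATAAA
Myh1, chr11:67199852-67200101: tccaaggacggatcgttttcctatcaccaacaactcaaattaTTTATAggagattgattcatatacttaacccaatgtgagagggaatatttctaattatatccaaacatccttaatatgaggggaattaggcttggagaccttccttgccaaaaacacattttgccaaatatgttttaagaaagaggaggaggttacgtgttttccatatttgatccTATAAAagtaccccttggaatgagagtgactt
Myh3 carries a single E-box and a TATA box. Myh1 carries TATAAA on both strands and no E-box.

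Among class II heavy chains, counting Myh3, Myh1, Myh7b and the non-sarcomeric Myh9 and Myh10, the sarcomeric genes were a small share of the summed FPKM. Myh3 made up 2.19% and 2.33% of it with scrambled siRNA and 4.48% and 4.67% with lnc-31 siRNA. Myh1 made up 0.136% and 0.167% with scrambled siRNA and 0.267% and 0.271% with lnc-31 siRNA. Both shares were higher in each lnc-31 siRNA library, as was the FPKM of 28.6% of all rows. Myh9, the main non-muscle heavy chain, kept 79.6% to 80.1% in all libraries. Myh3 exceeded Myh1 by 14.0-fold to 17.2-fold, and Myh9 exceeded Myh3 by 34.2-fold to 36.4-fold with scrambled siRNA and 17.1-fold to 17.8-fold with lnc-31 siRNA. With 2 libraries against 2, an exact permutation test of a share cannot reach 0.05, so these shares and those of the light chains below were not tested.

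The essential light chains bind next to the motor domain and differ by muscle type and stage. Myl4 is the embryonic and atrial form, at chr11:104546017-104587215. It stood at 9.71 and 11.6 FPKM with scrambled siRNA and at 18.2 and 16.2 FPKM with lnc-31 siRNA. It was the only tested member whose lnc-31 siRNA library 1 lay above library 2. Its log2 fold change was 0.65 (SE 0.097, adjusted p = 0.018), and the call was lost without scrambled siRNA 1 (adjusted p = 0.060). Its span overlaps that of Cdc27, a cell cycle gene at 34.4 to 35.7 FPKM in every library with a log2 fold change of -0.01 (adjusted p = 0.92).

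Myl1 encodes the fast essential light chains, at chr1:66924295-66947932. It stood at 16.8 and 19.7 FPKM with scrambled siRNA and at 36.4 and 40.2 FPKM with lnc-31 siRNA, with no overlap of the groups. Its log2 fold change of 1.03 (SE 0.087, adjusted p = 0.0056) was the highest of the members and ranked 25 among all tested rows, and mean FPKM was 2.09-fold higher with lnc-31 siRNA.

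Myl6b encodes an essential light chain found in slow muscle and in other cells, at chr10:128494157-128498685, beside the non-muscle essential light chain gene Myl6. It stood at 6.61 and 7.97 FPKM with scrambled siRNA and at 10.4 and 11.05 FPKM with lnc-31 siRNA. Its log2 fold change of 0.51 (SE 0.091, adjusted p = 0.027) was the lowest of the tested members. It no longer passed once scrambled siRNA 1 (adjusted p = 0.074) or either lnc-31 siRNA library was left out (0.058 without the first, 0.094 without the second). Its upstream sequence, with the same capitals, holds an E-box and no TATA box. It is printed in the direction of transcription, on the minus strand.
Myl6b, chr10:128498686-128498935: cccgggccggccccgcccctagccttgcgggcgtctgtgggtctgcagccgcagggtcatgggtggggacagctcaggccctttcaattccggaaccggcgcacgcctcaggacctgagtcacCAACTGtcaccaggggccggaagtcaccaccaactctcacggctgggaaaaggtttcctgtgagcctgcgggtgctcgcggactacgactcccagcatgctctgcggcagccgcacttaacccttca

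The shares of the essential light chains did not overlap between groups. In FPKM, 28.5% of tested rows were separated upward and 31.7% downward with lnc-31 siRNA. The shares are parts of the same sum, so a higher share of a gene lowers those of the rest. Of the summed FPKM of Myl1, Myl4 and Myl6b, Myl1 made up 50.8% and 50.2% with scrambled siRNA and 55.9% and 59.6% with lnc-31 siRNA. Myl6b went the other way, at 19.9% and 20.3% against 16.0% and 16.4%. Myl4 was at 29.3% and 29.5% against 28.01% and 24.0%. Myl6 outnumbered all of these, at 138.7-fold to 156.5-fold the FPKM of Myl6b with scrambled siRNA and 63.3-fold to 92.1-fold with lnc-31 siRNA. That ratio was lowest in lnc-31 siRNA 1, where Myl6 stood at 660.1 FPKM against 1018 in lnc-31 siRNA 2.

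Mylpf, the fast regulatory light chain, had the highest FPKM of the 7 genes in every library. It lies at chr7:127208848-127214288 and stood at 64.0 and 71.9 FPKM with scrambled siRNA and at 117.0 and 122.8 FPKM with lnc-31 siRNA. Its span overlaps that of Septin1, whose row Sept1 was at 0.193 to 0.408 FPKM. The groups were separated by 1.63-fold at their nearest values. Its log2 fold change was 0.81 (SE 0.065, adjusted p = 0.0056). Beside the non-sarcomeric regulatory light chains Myl9, Myl12a and Myl12b, Mylpf made up 8.26% and 8.84% of the summed FPKM with scrambled siRNA and 14.1% and 14.7% with lnc-31 siRNA. The ratio of Mylpf to Myh3 was 13.1 and 13.7 with scrambled siRNA and lower, at 11.7 and 12.2, with lnc-31 siRNA. That of Myl1 to Myh3 was 3.44 and 3.75 against 3.64 and 3.99, with overlapping groups.

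**Figure D2:**
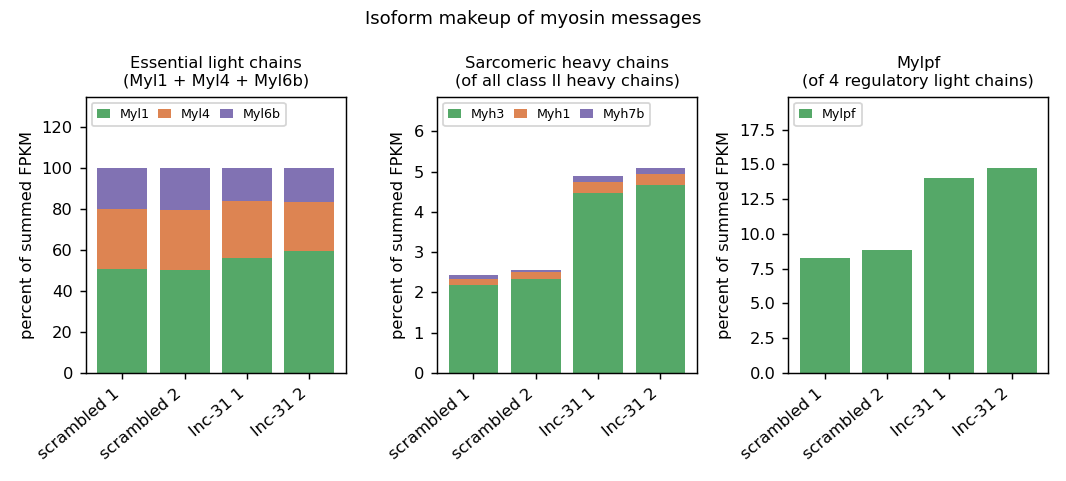
Percent of summed FPKM in each siRNA library (bars, from 0) for the essential light chains Myl1, Myl4 and Myl6b (left), for the sarcomeric heavy chains Myh3, Myh1 and Myh7b among all class II heavy chains (middle) and for Mylpf among 4 regulatory light chains (right). Myl1 goes from about 50% to 55.9% and 59.6%, Myh3 from 2.19% and 2.33% to 4.48% and 4.67%, and Mylpf from 8.26% and 8.84% to 14.1% and 14.7%.

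Mybph encodes myosin-binding protein H, a thick filament protein related to myosin-binding protein C, at chr1:134193418-134201237. It stood at 4.25 and 5.69 FPKM with scrambled siRNA and at 9.06 and 9.84 FPKM with lnc-31 siRNA. The scrambled siRNA libraries differed by 1.34-fold, the widest gap within a group among the members. Its log2 fold change was 0.82 (SE 0.12, adjusted p = 0.018), and the call was lost without lnc-31 siRNA 2 (adjusted p = 0.062). Its level was close to that of Myh3 in every library, and its gene span overlaps that of Adora1, which stood at 0.162 to 0.554 FPKM. Its upstream sequence is shown because it holds, near the start, the E-box CAGCTG, a form that myogenic factors favour, followed by a TATA box on the reverse strand.
Mybph, chr1:134193198-134193417: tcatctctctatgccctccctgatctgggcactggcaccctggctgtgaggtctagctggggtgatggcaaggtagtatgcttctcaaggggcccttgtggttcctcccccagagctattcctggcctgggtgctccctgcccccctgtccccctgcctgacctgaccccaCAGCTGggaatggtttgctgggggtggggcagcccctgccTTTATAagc

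Over the 250 bases upstream of the RefSeq start of each member, CANNTG was found in 5 of 7 (Myh3, Myl1, Mylpf, Myl6b and Mybph), against 66.2% of 32851 such windows in RefSeq. CAGCTG, which is contained in CANNTG, was found in 3 of 7 (Myl1, Mylpf and Mybph), against 13%. TATAAA on either strand was found in 4 of 7 (Myh3, Myh1, Myl1 and Mybph), against 12.4%. A strict form of the MEF2 motif (CTA and TAG around 4 bases of any kind) was found in 3.20% of windows. The CArG box bound by SRF (CC and GG around 6 bases of A or T) was found in 1.47%. Searched on both strands, neither was found in any of the 7. Other forms of the MEF2 motif were not searched. The printed Myh1 sequence holds such a form, ttaTTTATAg, which includes its capitals TTTATA. Matches are descriptions of letters in these windows only. For Myl4, Myl1 and Mylpf the RefSeq start lies 4646, 2876 and 2760 bases inside the gene span. Their windows, which include the CAGCTG matches of Myl1 and Mylpf, lie wholly within that span and are not shown.

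**Figure D3:**
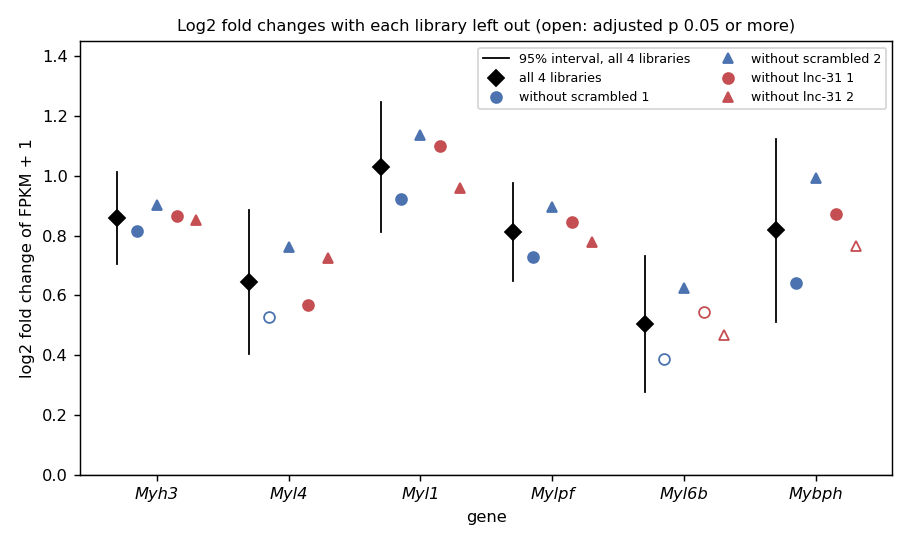
Log2 fold change of FPKM + 1 (lnc-31 siRNA minus scrambled siRNA) of the 6 tested members with all 4 libraries (diamonds, with 95% intervals) and with each library left out (coloured symbols, open where the adjusted p was 0.05 or more). All values lie above 0, the blue circles (without scrambled siRNA 1) are the lowest for Myh3, Myl4, Myl1, Mylpf, Myl6b and Mybph, and the open symbols are those of Myl4, Myl6b and Mybph.

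In scrambled siRNA 2 every member was higher than in scrambled siRNA 1, by 1.07-fold (Myh3) to 1.34-fold (Mybph) with a median of 1.19-fold, while the median of all tested rows was 1.03-fold and 68.4% of them were above 1. Between the lnc-31 siRNA libraries the members' ratios ran from 0.891 (Myl4) to 1.11 (Myl1). Leaving out scrambled siRNA 1 gave the smallest log2 fold changes of all members, from 0.39 for Myl6b to 0.92 for Myl1, and 4 of 6 calls. That library also had the lowest sum of FPKM over all rows, and the part of this in the members' values was not tested. There were 6 calls without scrambled siRNA 2, and 5 and 4 calls without the first and the second lnc-31 siRNA library. The calls of Myh3, Myl1 and Mylpf held in each of these.

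Other myosin genes were set beside the members. Of 17 other genes of sarcomeric myosins, their binding proteins and their light chain kinases listed for comparison, 3 had a row, and 1 of these, Myh7b, is a myosin. The one call was of a kinase: Mylk4 was at 1.58 ± 0.0418 FPKM with scrambled siRNA and rose to 2.38 ± 0.171 (SD, n = 2 each, log2 fold change 0.39, adjusted p = 0.047), a call lost with any 1 library left out (adjusted p = 0.10 to 0.18). The skeletal muscle light chain kinase Mylk2 was at 6.62 ± 0.475 and 7.74 ± 0.123 FPKM (adjusted p = 0.12), and the heavy chain Myh7b was at 0.154 to 0.337 FPKM and not tested. Of 8 tested genes of non-sarcomeric myosin II and its regulators, none rose and 1 fell, with a median log2 fold change of -0.07 (limma; none higher and 2 lower at an unadjusted p under 0.05). The one that fell was the non-muscle heavy chain Myh10, which was at 39.8 ± 0.283 FPKM with scrambled siRNA and 33.3 ± 1.86 with lnc-31 siRNA (log2 fold change -0.25, adjusted p = 0.036). Its call was lost without scrambled siRNA 1 (adjusted p = 0.12), scrambled siRNA 2 (0.13) or lnc-31 siRNA 2 (0.11), and under quantile normalization (0.054) or a constant prior variance (0.065). Myh9 (log2 fold change -0.03), the light chains Myl6 (-0.38), Myl9 (-0.10), Myl12a (0.05) and Myl12b (-0.15) and the phosphatase subunits Ppp1r12a (0.03) and Ppp1cb (-0.04) did not pass, with adjusted p from 0.080 to 0.77. Myl6 passed without lnc-31 siRNA 2 (log2 fold change -0.70, adjusted p = 0.020), the value resting on lnc-31 siRNA 1. The kinase Mylk was at 0.678 to 1.05 FPKM and not tested. Of 11 tested unconventional myosins, which move cargo and membranes, 1 rose (Myo10, 0.19) and 2 fell (Myo5a, -0.27, and Myo1c, -0.26). The Myo10 call was lost with any 1 library left out (adjusted p = 0.11 to 0.18), and those of Myo5a and Myo1c without scrambled siRNA 1 (0.11 and 0.10), scrambled siRNA 2 (0.14 and 0.080) or lnc-31 siRNA 2 (0.11 and 0.079). Those of Myo10 (0.085) and Myo5a (0.068) were also lost with a constant prior variance, and that of Myo10 with no filter (0.053).

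**Figure D4:**
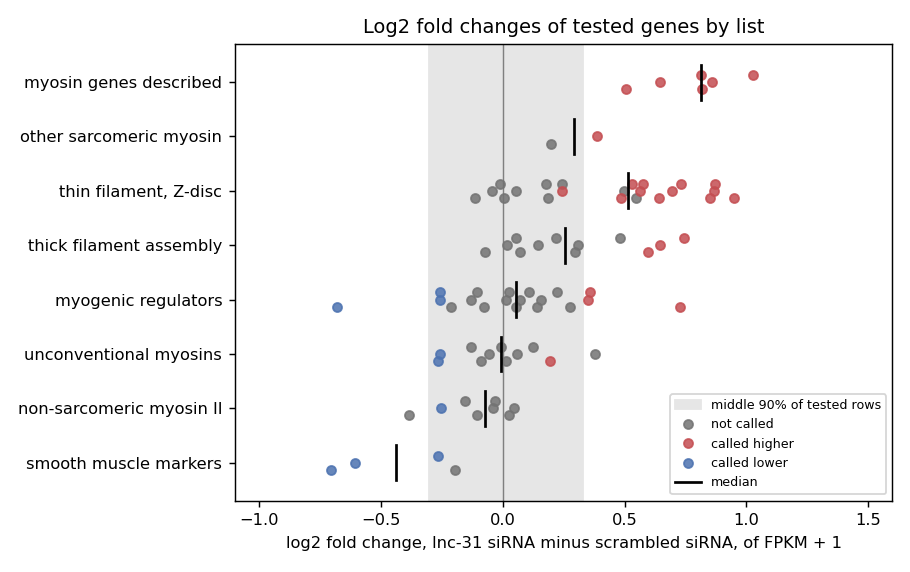
Log2 fold change of FPKM + 1 (lnc-31 siRNA minus scrambled siRNA) of every tested gene of 8 lists (points, coloured by the limma call), with the list median (black bar) and the middle 90% of all tested rows (grey band). All 6 tested members lie to the right of the band, and the 8 non-sarcomeric myosin II genes lie between -0.38 and 0.05.

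Of 12 tested genes of thick filament assembly 3 rose and none fell (median 0.26; 7 higher and 0 lower at an unadjusted p under 0.05). They were the myosin chaperone Unc45b (0.74, adjusted p = 0.018), the myosin methyltransferase Smyd1 (0.65, 0.0089) and titin, Ttn (0.60, 0.022). The general chaperone relative Unc45a stood at 10.6 to 11.8 FPKM in all libraries, and Obsl1 just missed the threshold (adjusted p = 0.0502) and passed under 5 of the 8 settings that kept all libraries (0.029 to 0.049). The Ttn call was lost with any 1 library left out (adjusted p = 0.068 to 0.085) and that of Unc45b with scrambled siRNA 1 (0.077) or 2 (0.055) left out; without the second lnc-31 siRNA library Unc45b fell under the filter. Of 22 tested thin filament and Z-disc genes 12 rose and none fell (median 0.51; 15 higher and 0 lower at an unadjusted p under 0.05), among them Actc1, cardiac actin (0.73), Acta1, skeletal actin (0.70), Tnnc2, fast troponin C (0.85), and Tnnt1, slow troponin T (0.58). With 1 library left out, 8 to 10 of them rose. Among 19 myogenic regulators with a test, 3 were called higher (Myog, Myod1 and Mef2a) and 3 lower (Srf, Id2 and Mef2d), with a median of 0.05. The called MEF2 genes went opposite ways, with log2 fold changes of 0.35 for Mef2a and -0.26 for Mef2d (adjusted p = 0.022 and 0.028). The Mef2a call was lost without scrambled siRNA 1 (0.098), scrambled siRNA 2 (0.058) or the first lnc-31 siRNA library (0.063). With any 1 library left out, Srf alone was called lower. Myog, myogenin, was at 64.8 ± 9.64 FPKM with scrambled siRNA and rose to 107.5 ± 0.874 (log2 fold change of 0.73, adjusted p = 0.013), and, like the members, was higher in scrambled siRNA 2 (71.7 FPKM) than in scrambled siRNA 1 (58.0 FPKM). Srf, which binds CArG boxes, fell by 0.68 on the log2 scale (adjusted p = 0.0075).

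Among the tested rows outside all lists whose values over the 4 libraries were nearest to the mean profile of the 6 tested members were G0s2, Tmem8c, Chac1 and Arpp21. The measure was the Euclidean distance between log2(FPKM + 1) values centred on each row's mean, which was 0.061 for G0s2 and 0.092 for Arpp21, against 0.80 for the median tested row and 0.052 (Mylpf) to 0.27 (Myl6b) for the members themselves. G0s2, an inhibitor of fat breakdown, stood at 26.5 and 32.1 FPKM with scrambled siRNA and 49.6 and 49.5 with lnc-31 siRNA. Tmem8c, the fusion protein myomaker, stood at 16.2 and 18.1 against 28.1 and 29.6. Chac1, a stress-induced enzyme of glutathione breakdown, stood at 13.6 and 16.5 against 25.5 and 25.0 FPKM, and Arpp21 at 1.27 and 1.44 against 2.91 and 3.20.

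Markers of other cell types were set beside the members. Smooth muscle markers had a row for 5 of 7 genes, with summed FPKM of 559.6 to 566.0 with scrambled siRNA and 428.5 to 465.6 with lnc-31 siRNA, and 3 of 4 tested fell (Acta2, Tagln and Cnn1). The Acta2 call was lost without either scrambled siRNA library (adjusted p = 0.13 in both) or the first lnc-31 siRNA library (0.096), and with a constant prior variance (0.058). The smooth muscle heavy chain Myh11 had no row. Cardiac markers had a row for 3 of 9 genes (73.1 to 85.9 against 111.0 to 114.6 FPKM, most of it Tnnt2, which embryonic skeletal muscle also expresses and whose call was lost without the second lnc-31 siRNA library, adjusted p = 0.068), and Gata4 was at 9.39 to 9.79 FPKM throughout. Fibroblast and mesenchymal markers had a row for 4 of 8 (51.0 to 52.1 against 63.9 to 64.9 FPKM), and 2 of 3 tested rose, Dcn and Pdgfrb, the latter not with any 1 library left out (adjusted p = 0.096 to 0.14) or with a constant prior variance (0.069). The fibroblast marker row not tested, Dpt, was under the filter. It stood at 0.179 and 0.189 FPKM with scrambled siRNA and 0.623 and 0.814 FPKM with lnc-31 siRNA. Adipocyte (3 of 6), osteoblast (2 of 5) and neural markers (2 of 5) had no call by limma. At an unadjusted p under 0.05 they had 0, 0 and 0 higher and 0, 1 and 1 lower. Of 6 endothelial, blood or epithelial markers only the epithelial keratin Krt8 had a row, at 0.0993 and 0.143 FPKM with scrambled siRNA and 0.540 and 0.517 FPKM with lnc-31 siRNA. It was under the filter and not tested, but its groups did not overlap and, like the members, it was higher with lnc-31 siRNA, by 4.37-fold in mean FPKM. Of 9 rows of mitochondrially encoded messages, read as a sign of RNA quality, none was called by limma (2 lower at an unadjusted p under 0.05), with a median of -0.16. The part of these in the members' values was not tested.

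In the pull-down none of the 7 members held a peak, with lnc-31 probes (596 peaks) or with lacZ probes (476 peaks). Of 12023 rows matched to a RefSeq gene by symbol, 1.8% held a lnc-31 probe peak and 1.72% a lacZ probe peak, so that none in 7 is near the background. Within 1 kb of the genes there was no peak either. The nearest lnc-31 probe peak lay 150.7 kb from Myl1 and the nearest lacZ probe peak 108.6 kb from Myl4.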

How the data were processed

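Stranded mRNA libraries of siRNA-treated C2C12 cells (2 per group) were deposited as FPKM values, which the authors made on mm10 with tools listed as Cuffdiff, TopHat2, Bowtie2, BWA, Trimmomatic and CASAVA, per the submitters' processing notes (which give the names, not their order or roles). Depth is unknown. The pull-down lists deposited by the authors hold a column read as a p-value from its range alone. No source used here names the peak caller. There were 0 sample columns without a label.

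Rows (names split on commas) whose mean reached 1 FPKM were analysed as log2(FPKM + 1) with limma 3.58.1 (R 4.3.3), trended prior variance, two-sided, Benjamini-Hochberg adjustment over 11500 rows. This scale understates changes of low genes. Folds and ratios were computed from FPKM. The script was tested on simulated data. Members, lists and tests were chosen with earlier results of these data known. Named genes were all members, every row of the other sarcomeric and non-sarcomeric myosin II lists, up to 4 per other list by smallest p, the 5 nearest profiles outside all lists (names beginning Gm or ending Rik left out; 1 of the 5 is not reported here), Rock1 and the row naming Mir31. Unc45a, Mef2d, Id2 and Cdc27, Adora1 and the other RefSeq neighbours were added after their values were seen. Myf5 was also named outside this rule. Gene positions and upstream sequences came from RefSeq on GRCm38.p6. Upstream windows printed are those with at most 30 bases inside the gene span, cut at its edge except to complete a motif. Overlap with a peak needed 1 base.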

Additional observations from a re-analysis of the deposited data

How the results depend on the processing

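Under 8 alternatives other than leaving out a library, all 6 tested members were called higher and none lower. They were pseudocounts of 0.1 and 0.5, no filter, a mean of 5 FPKM or more, a constant prior variance, quantile normalization, scaling by the median of ratios and the replicate number as a block. Over these and the 4 fits without a library, 67 of 72 member values were called. The replicate number was not treated as a pairing. The correlation of replicate differences between groups was -0.094 (Pearson) and 0.054 (Spearman) over 11500 rows. With the replicate block 728 rows were called higher and 885 lower over all rows, 0 genes of the other sarcomeric myosin list were called, and Mylk4 had an adjusted p of 0.059. Over all rows, 143 to 346 were called higher and 157 to 293 lower with 1 library left out, against 649 and 780. When 1 library is left out, the lone library of its group is assumed to vary like the other group.

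The small companion counts moved more. The other sarcomeric myosin list, whose one call is the kinase Mylk4, went from 1 to 0 higher with a mean of 5 FPKM or more (fewer rows tested) and 0 with any library left out. Non-sarcomeric myosin II went to 0 lower under quantile normalization and 0 with a constant prior variance (0 to 1 with a library left out). Unconventional myosins went to 0 higher with no filter, 0 higher and 1 lower with a constant prior variance, and 0 higher and 0 to 2 lower with a library left out. Thick filament genes went to 1 higher with a mean of 5 FPKM or more. That fit tested 6 of them, without Unc45b, Smyd1 and Ttn, and its call was of Obsl1 (limma adjusted p = 0.041). The count of thick filament genes called higher was also lower with any library left out. Myogenic regulators went to 6 higher under quantile normalization and 6 under median of ratios scaling (1 to 2 higher and 1 lower with a library left out). The cause was not tested. With 1 library left out, log2 fold changes near 0 changed sign for Ppp1r12a (-0.011 to 0.065), Gata4 (-0.018 to 0.037), Lpl (-0.012 to 0.16) and Tubb3 (-0.041 to 0.062). Heavy chain shares and the absence of peaks in the members stayed within 1 SD or at 0 under each setting tried. Precision is limited by 2 libraries per group and unknown depth.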
